A study of Mus musculus with 48 samples.

Results

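The genes described here are NRF2, its inhibitor KEAP1 and 8 antioxidant and cytoprotective genes that NRF2 is known to activate, measured in cultured mouse kidney slices. The 10 genes (Nfe2l2, Keap1, Hmox1, Srxn1, Txnrd1, Slc7a11, Gclc, Gclm, Nqo1 and G6pdx) are the rows of the gene count table whose Ensembl identifiers map to these symbols, 10 of 55487 rows. RNA was sequenced in bulk from kidney slices of males of both parental strains of the BXD recombinant inbred panel, C57BL/6J and DBA/2J. Each strain had 8 conditions with 3 libraries each, 48 libraries in 16 groups. Slices were kept as controls or exposed ex vivo to tunicamycin or cyclosporin A, for 6 h or 24 h. Another pair of conditions in each strain, with 24 h in the titles, was normoxia, labelled an ischemia model, and normoxia followed by hyperoxia, labelled a reperfusion model. Tunicamycin blocks N-linked glycosylation and is used to cause endoplasmic reticulum stress, and cyclosporin A is an immunosuppressive calcineurin inhibitor with known kidney toxicity. Drug doses, oxygen levels, the oxygen of the control slices, the animals' age and whether slices of several mice were pooled are not given in the sources used here. No unsliced kidney was analysed here, and the sample titles do not say whether all 16 groups were sliced and cultured in the same way.

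NRF2, the product of Nfe2l2, is a transcription factor that is made continuously and destroyed continuously. KEAP1 holds it at a CUL3 ubiquitin ligase, and oxidants or electrophiles that modify KEAP1 cysteines let new NRF2 reach the nucleus, where it binds antioxidant response elements together with small MAF proteins. Its activity is thus set mainly by protein stability, and the messenger RNA levels given here measure neither NRF2 protein nor its binding. BACH1, a heme-sensitive repressor, occupies some of the same elements, most famously that of Hmox1. In the kidney the pathway is known for its protective role in ischemic and toxic injury of the tubule.

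Because several of these genes changed together, the antioxidant response element core was looked for in their promoters, taken as 250 bases before to 50 after each start site in RefSeq (GRCm38.p6). The windows of 8 of the 10 genes were found, 10 windows in all since Txnrd1 has 3; Hmox1 and Gclc were not among them. The core was searched on both strands in its C form (TGACNNNGC) and its G form (TGAGNNNGC), together with the AP-1 site (TGACTCA), which can overlap the G form, and the ATF4 amino acid response element core (TGATGCAA). Of 32851 promoter windows, 12.4% held the C form, 17.6% the G form, 27.8% either form, 5.2% the AP-1 site and 0.895% the ATF4 core. Either form of the response element core was found in 6 of the 10 windows of these genes, which belong to 6 of the 8 genes (Nfe2l2, Srxn1, Slc7a11, Gclm, Txnrd1 and G6pdx), and no match was found in the windows of Nqo1 and Keap1. The stretches with matches upstream of the start site are printed 5′ to 3′ on the gene's strand, with the matches in capitals. Srxn1 (chr2:152105346-152105507, plus strand) is shown because it holds 2 matches of the G form, 1 of which, 45 bases upstream, is also an AP-1 match, beside another AP-1 match 102 bases upstream; a C form match 29 bases after its start is not printed. Slc7a11 (chr3:50443633-50443730, minus strand) is shown because it holds 1 G form match and 2 ATF4 core matches, 66 and 47 bases upstream, and it was the only one of the 8 genes with the ATF4 core. The single C form matches of Nfe2l2 (chr2:75704875-75704913, minus strand), Gclm (chr3:122245403-122245451, plus strand), Txnrd1 (chr10:82859094-82859142, plus strand) and G6pdx (chrX:74428909-74428957, minus strand) are given for comparison.
Srxn1: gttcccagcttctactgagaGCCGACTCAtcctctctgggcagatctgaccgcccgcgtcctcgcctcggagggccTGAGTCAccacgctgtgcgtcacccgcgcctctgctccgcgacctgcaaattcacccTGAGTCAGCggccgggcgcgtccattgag
Slc7a11: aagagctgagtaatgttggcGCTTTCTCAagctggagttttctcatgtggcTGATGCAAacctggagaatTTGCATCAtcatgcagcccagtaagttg
Nfe2l2: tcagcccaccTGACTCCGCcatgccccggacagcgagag
Gclm: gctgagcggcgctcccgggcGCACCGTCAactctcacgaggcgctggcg
Txnrd1: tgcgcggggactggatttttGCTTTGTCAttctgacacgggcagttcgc
G6pdx: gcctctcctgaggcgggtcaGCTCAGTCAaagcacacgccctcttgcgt
A match on the opposite strand appears as its reverse complement. A match describes letters only, and no match says nothing of sites outside these windows, where known elements of these genes lie.

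The libraries held 5619309 to 25137581 assigned reads, with a median of 19607361; the smallest was DBA/2J normoxia-hyperoxia replicate 2 and the next 12384733. All 10 genes passed the filter on low counts in every comparison. In comparisons with normoxia, Slc7a11 passed only through the other groups, since no normoxia library held more than 0.262 CPM of it. Its calls there rest on that. Levels below are CPM, the counts scaled to 1000000 assigned reads per library, a total that includes mitochondrial transcripts at 3.11% to 25.6% of a library, and they are compared within a gene only. Fold changes come from edgeR on counts with TMM scaling, 12 libraries per comparison, and a gene is called changed at an adjusted p under 0.05 over all genes tested. The 3 libraries of a group are labelled biological replicates, but no label says that they came from separate animals, so the p-values measure the spread between these libraries. Markers of the proximal tubule, the main epithelium of the kidney cortex, moved strongly with the conditions and are given beside the results: the summed level of 10 markers was 27887 to 34078 CPM in C57BL/6J and 40909.6 to 43754 in DBA/2J in normoxia, 8102 to 15176 and 17419 to 22188 in 6 h controls, 1429 to 1959.9 and 3314 to 6055 in 24 h controls, and 774 to 1109 and 1866 to 2679 in normoxia-hyperoxia. None of these markers was at or near 0 in all groups. The summed level of 8 macrophage markers was 241 to 298 CPM (C57BL/6J) and 493 to 599.9 CPM (DBA/2J) in normoxia-hyperoxia, against 167 to 237 and 248 to 296 in 24 h controls. Other cell types moved as well: against 24 h controls, normoxia-hyperoxia had higher sums for 4 intercalated cell markers (412 to 769.6 against 70.8 to 88.7 CPM in C57BL/6J, 355 to 545 against 42.4 to 77.3 in DBA/2J) and 3 distal convoluted tubule markers (3604 to 6267 against 587 to 837, and 5731 to 6842 against 1195 to 1598). All 3 loop of Henle, 4 collecting duct and 4 podocyte markers were higher there too. The part of these shifts in the results was not tested, and in bulk RNA fewer cells of a type and less RNA per cell cannot be told apart.

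Across the 16 groups the genes followed 2 patterns. Hmox1, Srxn1, Txnrd1, Slc7a11, Gclc and Nfe2l2 had every normoxia library below every other library of the same strain, the 6 h groups included. The share of all genes placed in this way was not counted. Of all genes, 39.7% were called lower in normoxia than in 24 h controls. Nqo1, Gclm and G6pdx were near or below their normoxia level in 6 h slices and in normoxia-hyperoxia, and stood high in the 24 h control and drug groups. Keap1 varied least, with a ratio of 2.37 between its highest and lowest group means, against 216 for Hmox1 and 669.6 for Slc7a11; with TMM factors the Keap1 ratio was 1.85. When the 16 group means of each gene were ordered, few neighbours had library ranges that did not overlap: 1 of 15 neighbouring pairs for G6pdx, 2 for Keap1 and Srxn1, 3 for Nfe2l2, Hmox1, Nqo1, Gclm, Txnrd1 and Slc7a11, and 4 for Gclc. All other neighbours in the order had overlapping libraries and are not told apart by their spread.

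**Figure D1:**
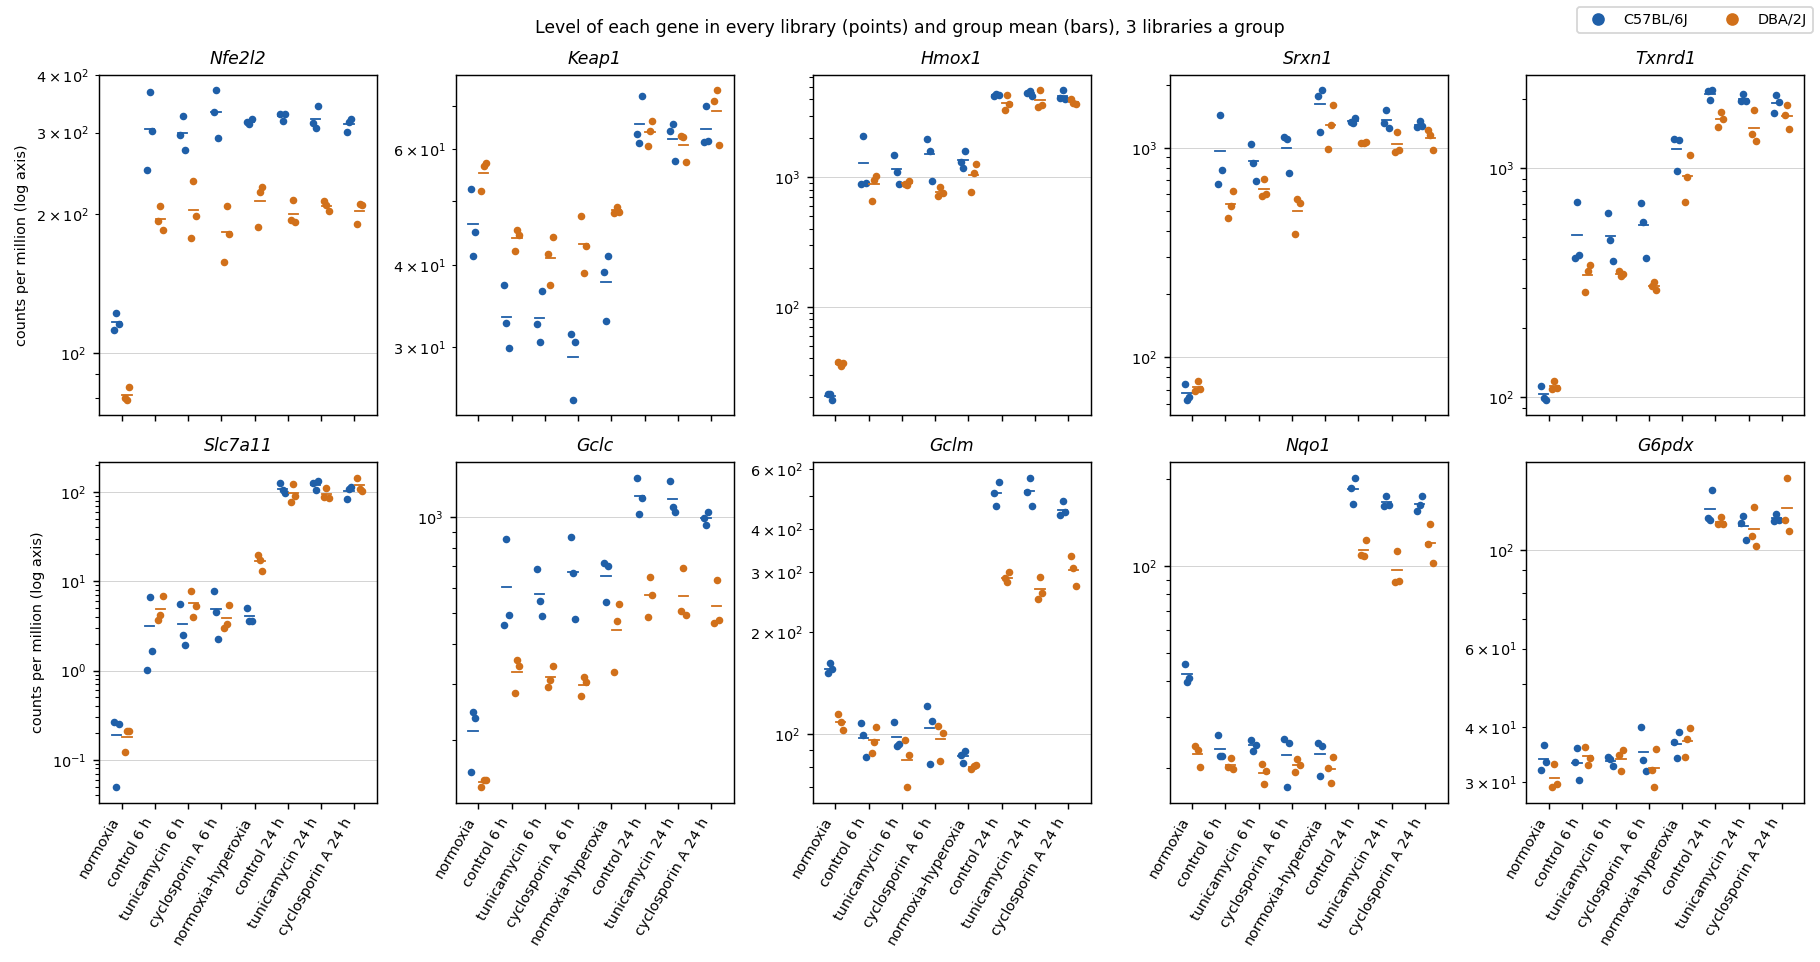
CPM (log axis) of the 10 genes in all 48 libraries, by condition; points are libraries, short bars group means, blue C57BL/6J and orange DBA/2J. Hmox1, Srxn1, Txnrd1, Slc7a11, Gclc and Nfe2l2 are lowest in normoxia, whereas Nqo1, Gclm and G6pdx are high in the 24 h control and drug groups.

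In normoxia, 9 of the 10 genes were lower than in 24 h controls on the mean of both strains and none was higher (background 82% of 17375 genes called, 42.4% higher and 39.7% lower). The exception was Keap1, at -0.08 ± 0.06 (SE, edgeR adjusted p = 0.24) on the log2 scale. In normoxia-hyperoxia against 24 h controls, 2 genes were higher (Srxn1 and Nfe2l2) and the other 8 lower, with 68.2% of genes called (34.1% higher and 34.1% lower). Neither of the 2 higher calls was kept with total counts in place of TMM. In normoxia-hyperoxia against normoxia, 6 were higher (Hmox1, Slc7a11, Srxn1, Txnrd1, Gclc and Nfe2l2), 3 lower (Gclm, Nqo1 and Keap1) and G6pdx was not called, with 73.5% of genes called (37% higher and 36.5% lower). In 24 h against 6 h controls, 9 were higher, all except Nfe2l2, with 72% of genes called (34.7% higher and 37.4% lower). These comparisons moved most of the transcriptome, so the members' counts stand against high backgrounds, and the 24 h controls serve in 3 of them. The normoxia and normoxia-hyperoxia groups have no separately labelled control. Against the 24 h controls, oxygen and experiment therefore cannot be told apart.

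**Figure D2:**
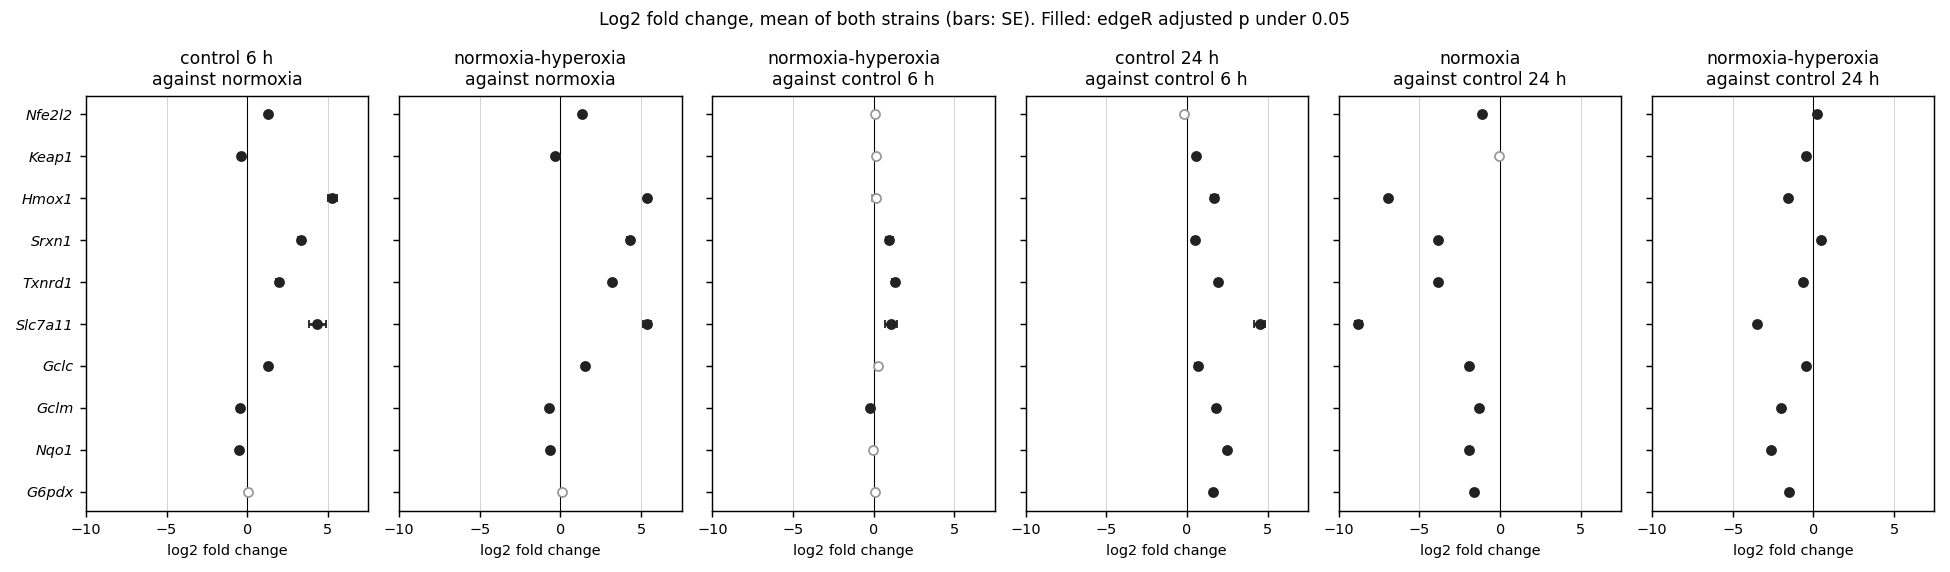
Log2 fold change (mean of both strains, bars SE) of each gene in 6 comparisons; filled points have an edgeR adjusted p under 0.05. Slc7a11 and Hmox1 span the widest ranges, and Nqo1, Gclm and G6pdx lie near or below 0 except in 24 h against 6 h controls.

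Another pair of comparisons was added after the data had been seen, to set the 6 h controls beside both oxygen groups. In 6 h controls against normoxia the same 6 genes as in normoxia-hyperoxia against normoxia were higher and the same 3 lower (background 65.8% of genes called, 32.9% higher and 32.9% lower); both comparisons share the normoxia libraries. In normoxia-hyperoxia against 6 h controls, 3 genes were higher (Txnrd1, Slc7a11 and Srxn1), Gclm was lower, and 6 were not called, with 44.9% of genes called (22.4% higher and 22.5% lower). Time, oxygen and experiment differ together in these contrasts and cannot be told apart. The members' median log2 fold change was -1.95 in normoxia against 24 h controls, where the median over all genes was 0.05. It was -1.09 in normoxia-hyperoxia against 24 h controls (all genes 0.0036), 1.42 in normoxia-hyperoxia against normoxia (all genes 0.02), and 1.65 in 24 h against 6 h controls (all genes -0.02). Scaling by total counts in place of TMM moved the median of all genes to -0.22, -0.17, 0.11 and 0.19 in these comparisons. The calls over all genes then went from 7359 higher and 6891 lower to 5938 higher and 8358 lower in normoxia against 24 h controls, from 5881 higher and 5891 lower to 4699 higher and 7347 lower in normoxia-hyperoxia against 24 h controls, and from 5883 higher and 6338 lower to 7580 higher and 4970 lower in 24 h against 6 h controls.

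Nfe2l2 (ENSMUSG00000015839, chr2:75675513-75704641, minus strand), which encodes NRF2 itself, separated normoxia from the rest and the strains from each other. In normoxia its level was 112, 122 and 115 CPM in the C57BL/6J libraries and 80.04, 79.4 and 84.5 CPM in DBA/2J. At 6 h, controls held 249, 367 and 302 CPM in C57BL/6J and 193, 208 and 185 CPM in DBA/2J, and every 6 h library lay above every normoxia library of its strain. The 24 h controls stood at 329, 318 and 329 CPM (C57BL/6J) and 194, 215 and 193 CPM (DBA/2J), within or beside the 6 h range. Normoxia-hyperoxia gave 316, 313 and 321 CPM in C57BL/6J and 187, 223 and 228 CPM in DBA/2J. The gene rose 2.51-fold from normoxia to normoxia-hyperoxia, a log2 fold change of 1.33 ± 0.06 (SE, edgeR adjusted p = 1.8e-11), and was 2.17-fold lower in normoxia than in 24 h controls, -1.12 ± 0.05 (SE, edgeR adjusted p = 5.7e-12). Between 24 h and 6 h controls no change was called, at -0.15 ± 0.09 (SE, edgeR adjusted p = 0.12); this estimate was 0.06 with total counts, and without C57BL/6J control 6 h replicate 1 it was -0.23 (edgeR adjusted p = 0.00824). Its log2 difference of 0.19 ± 0.06 (SE, edgeR adjusted p = 0.00722) between normoxia-hyperoxia and 24 h controls was 0.02 (edgeR adjusted p = 0.73) with total counts, and the libraries overlapped.

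Keap1 (ENSMUSG00000003308, chr9:21229730-21239361, minus strand), the adaptor that presents NRF2 for degradation, moved little and in part the other way. It ranged over 41.3 to 57.2 CPM in the 6 normoxia libraries, 29.9 to 45.3 in 6 h controls, 32.9 to 49.1 in normoxia-hyperoxia and 60.8 to 72.3 in 24 h controls. It was 1.46-fold higher in 24 h than in 6 h controls, a log2 fold change of 0.54 ± 0.07 (SE, edgeR adjusted p = 3.4e-06). From normoxia to normoxia-hyperoxia it fell by 0.33 ± 0.07 (SE, edgeR adjusted p = 4.6e-04) on the log2 scale, while Nfe2l2 rose. In normoxia against 24 h controls its call depended on the scaling: all normoxia libraries were below all 24 h control libraries of their strain in CPM, the TMM estimate was -0.08, and the estimate with total counts was -0.36 (edgeR adjusted p = 1.1e-04). Without C57BL/6J normoxia replicate 1 it was -0.13 (edgeR adjusted p = 0.0483). An antisense gene, Gm16754, overlaps Keap1 and held 2510 reads over all libraries, and although the libraries were stranded, per the labels' protocols, the strand setting of the counting is not given in the sources used here.

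Hmox1 (ENSMUSG00000005413, chr8:75093621-75100589, plus strand) encodes the inducible heme oxygenase, which degrades heme to biliverdin, carbon monoxide and iron. Normoxia libraries held 21.3, 21.3 and 19.2 CPM in C57BL/6J and 37.3, 35.1 and 36.6 CPM in DBA/2J, with no overlap between strains. The 6 h controls held 888, 2099 and 899.6 CPM (C57BL/6J) and 661, 961 and 1026 CPM (DBA/2J). Normoxia-hyperoxia gave 1316, 1187 and 1591 CPM and 771, 1088 and 1267 CPM in the same order of strains, overlapping the 6 h controls. The 24 h controls reached 4285, 4381 and 4309 CPM in C57BL/6J and 3327, 4313 and 3682 CPM in DBA/2J, above all 6 h libraries. Hmox1 was 122-fold lower in normoxia than in 24 h controls, a log2 fold change of -6.93 ± 0.09 (SE, edgeR adjusted p = 2.4e-17). It was 38.9-fold higher in 6 h controls than in normoxia, at 5.28 ± 0.26 (SE, edgeR adjusted p = 8.2e-09), and 40.9-fold higher in normoxia-hyperoxia than in normoxia, at 5.35 ± 0.13 (SE, edgeR adjusted p = 3.5e-14). From 6 h to 24 h in control slices it rose 3.25-fold, at 1.698 ± 0.22 (SE, edgeR adjusted p = 2.4e-05).

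Srxn1 and Txnrd1 act in the thioredoxin system: sulfiredoxin repairs overoxidised peroxiredoxins, and thioredoxin reductase returns thioredoxin to its reduced form using NADPH. Srxn1 (ENSMUSG00000032802, chr2:152105516-152111376, plus strand), whose promoter holds the AP-1 and response element matches printed above, was at 74.7, 62.7 and 64.4 CPM in C57BL/6J normoxia and 69.02, 76.8 and 70.4 CPM in DBA/2J normoxia. Its 6 h controls held 672, 1435 and 783 CPM (C57BL/6J) and 462, 525 and 624 CPM (DBA/2J). Its 24 h controls held 1335, 1319.5 and 1393 CPM and 1052, 1048 and 1062 CPM. Normoxia-hyperoxia gave the highest group mean of the 8 C57BL/6J conditions, with 1760.01, 1187 and 1888 CPM, and 988, 1286 and 1601 CPM in DBA/2J. Srxn1 was 19.4-fold higher in normoxia-hyperoxia than in normoxia, a log2 fold change of 4.28 ± 0.14 (SE, edgeR adjusted p = 2.4e-12). Against 24 h controls the log2 difference was 0.44 ± 0.12 (SE, edgeR adjusted p = 0.00375), with overlapping libraries in both strains, and 0.27 (edgeR adjusted p = 0.0564) with total counts. It was the only member besides Nfe2l2 called higher in normoxia-hyperoxia than in 24 h controls.

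Txnrd1 (ENSMUSG00000020250, chr10:82833951-82897712, plus strand) rose in steps. Its level was 112, 99.4 and 97.8 CPM in C57BL/6J normoxia and 109, 118 and 110.3 CPM in DBA/2J normoxia. It was 404, 716 and 417 CPM (C57BL/6J) and 289, 356 and 378 CPM (DBA/2J) in 6 h controls. Normoxia-hyperoxia gave 1343, 969 and 1335 CPM and 712, 918 and 1146 CPM, above the 6 h controls of each strain without overlap. The 24 h controls gave 2168, 1992 and 2198 CPM and 1519.5, 1767 and 1637 CPM, above normoxia-hyperoxia without overlap. The log2 fold changes were 1.95 ± 0.14 (SE, edgeR adjusted p = 7.8e-08) for 6 h controls against normoxia, 1.31 ± 0.17 (SE, edgeR adjusted p = 4.9e-05) for normoxia-hyperoxia against 6 h controls, and -0.65 ± 0.11 (SE, edgeR adjusted p = 8.5e-05) for normoxia-hyperoxia against 24 h controls. Txnrd1 was the only member whose libraries did not overlap in both strains between normoxia-hyperoxia and 6 h controls, where 13% of genes were so placed in the higher direction. Eid3 lies within the Txnrd1 locus on the same strand and held 3183 reads over all libraries.

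Slc7a11 (ENSMUSG00000027737, chr3:49892526-50443614, minus strand) encodes the light chain of the cystine-glutamate exchanger that supplies cysteine for glutathione, and is known as a target of ATF4 as well as of NRF2. In normoxia it was close to the limit of detection, at 0.262, 0.0495 and 0.255 CPM in C57BL/6J and 0.123, 0.208 and 0.2103 CPM in DBA/2J, which is 1 to 6 reads per library and 12 reads over the 3 libraries of each strain. The 6 h controls held 1.01, 6.71 and 1.66 CPM (C57BL/6J) and 3.65, 4.19 and 6.86 CPM (DBA/2J). The 24 h controls held 124, 104 and 96.6 CPM and 77.6, 122 and 89.6 CPM, far above all 6 h libraries. Normoxia-hyperoxia gave 5.005, 3.62 and 3.63 CPM in C57BL/6J and 19.5, 17.4 and 13.04 CPM in DBA/2J, without overlap between strains. As ratios of pooled CPM, with intervals that cover counting error only, the 24 h controls exceeded normoxia by a factor of 574 (exact 95% interval 328 to 1112) in C57BL/6J and 545 (exact 95% interval 312 to 1055) in DBA/2J. The factor for 6 h controls was 16.1 (exact 95% interval 8.96 to 31.7) in C57BL/6J and 26.9 (exact 95% interval 15.2 to 52.6) in DBA/2J. In C57BL/6J 119 of the 169 reads came from control 6 h replicate 2, and without that library the factor was 7.02 (exact 95% interval 3.68 to 14.5). For normoxia-hyperoxia the ratio to normoxia was 21.1 (exact 95% interval 11.8 to 41.3) in C57BL/6J and 91.1 (exact 95% interval 51.8 to 177) in DBA/2J. The test of this strain difference with the spread between libraries, the interaction term, gave a log2 difference of 1.96 ± 0.65 (SE, edgeR adjusted p = 0.0481), which was lost in 11 of 19 alternatives, with an edgeR adjusted p of 0.41 in the fit of all 48 libraries. The log2 rise from 6 h to 24 h controls was 4.501 ± 0.34 (SE, edgeR adjusted p = 4.2e-07), the largest of the 10 genes, and 5.11 without C57BL/6J control 6 h replicate 2. The difference of 1.05 ± 0.37 (SE, edgeR adjusted p = 0.0375) between normoxia-hyperoxia and 6 h controls was lost in 10 of 19 alternatives, 9 of them with 1 library left out (any but C57BL/6J control 6 h replicate 2, DBA/2J control 6 h replicate 3 and DBA/2J normoxia-hyperoxia replicate 3), with estimates of 0.83 to 1.67 over the alternatives and edgeR adjusted p up to 0.0822; without C57BL/6J control 6 h replicate 2 it was 1.67.

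Gclc and Gclm encode the catalytic and modifier subunits of glutamate-cysteine ligase, the rate-limiting enzyme of glutathione synthesis, and in 6 h controls and normoxia-hyperoxia they differed from normoxia in opposite directions. Gclc (ENSMUSG00000032350, chr9:77754535-77794485, plus strand) held 158, 245 and 234 CPM in C57BL/6J normoxia and 142, 149.6 and 149.7 CPM in DBA/2J normoxia. It held 458, 856 and 492 CPM and 282, 355 and 339.9 CPM in 6 h controls, and in 24 h controls 1329.5, 1021 and 1146 CPM and 487, 649 and 570.3 CPM. In both strains the 6 h values were above normoxia and below 24 h without overlap. Normoxia-hyperoxia gave 719, 543 and 704 CPM in C57BL/6J and 327, 471 and 533 CPM in DBA/2J. Gclm (ENSMUSG00000028124, chr3:122245557-122270732, plus strand) instead held 151, 162 and 155 CPM in C57BL/6J normoxia and 115, 109 and 103 CPM in DBA/2J normoxia. Its 6 h controls were lower in C57BL/6J, at 108, 99.3 and 85.7 CPM, and overlapped normoxia in DBA/2J, at 88.3, 95.02 and 105 CPM. Normoxia-hyperoxia held 87.2, 82.5 and 89.6 and 79.3, 80.6 and 81.4 CPM, below every normoxia library of the strain. The 24 h controls stood at 513, 467 and 549.6 and 287, 279.8 and 299 CPM. From normoxia to normoxia-hyperoxia Gclc rose, with a log2 fold change of 1.52 ± 0.13 (SE, edgeR adjusted p = 1.2e-07), while Gclm fell by 0.73 ± 0.05 (SE, edgeR adjusted p = 3.8e-09) on the log2 scale. From 6 h to 24 h controls both rose, Gclc by 0.66 ± 0.15 (SE, edgeR adjusted p = 0.00178) and Gclm by 1.77 ± 0.08 (SE, edgeR adjusted p = 1.3e-10). The difference between the 2 genes' changes was not tested, and each call was kept in the same direction in all 19 alternatives of both comparisons.

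Nqo1 (ENSMUSG00000003849, chr8:107388225-107403206, minus strand), a quinone reductase and the gene most often read out for NRF2 activity, shared the Gclm pattern. It was at 46.1, 39.8 and 41.2 CPM in C57BL/6J normoxia and 23.9, 23.1 and 20.2 CPM in DBA/2J normoxia. At 6 h the controls held 26.1, 22.04 and 21.98 CPM (C57BL/6J) and 20.1, 21.6 and 19.9 CPM (DBA/2J), and in normoxia-hyperoxia 24.4, 18.8 and 23.9 and 20.05, 17.8 and 21.8 CPM. In C57BL/6J both groups lay below normoxia without overlap, and in DBA/2J they overlapped it. The 24 h controls rose to 187, 165 and 203 CPM in C57BL/6J and 109.5, 108 and 123 CPM in DBA/2J. Nqo1 was higher in 24 h than in 6 h controls by 2.51 ± 0.07 (SE, edgeR adjusted p = 6.5e-12) on the log2 scale, and changed by -0.63 ± 0.08 (SE, edgeR adjusted p = 5.9e-06) in normoxia-hyperoxia against normoxia. Normoxia-hyperoxia lay 6.07-fold below 24 h controls, at -2.602 ± 0.08 (SE, edgeR adjusted p = 9.3e-12).

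G6pdx (ENSMUSG00000031400, chrX:74409483-74429194, minus strand), the entry enzyme of the pentose phosphate pathway and a source of NADPH, was flat except in the 24 h control and drug groups. It ranged over 29.3 to 36.5 CPM in normoxia, 30.4 to 36.1 in 6 h controls and 33.97 to 39.8 in normoxia-hyperoxia, 3 ranges that overlapped. In 24 h controls it held 114 to 136 CPM. It was 3.05-fold higher in 24 h than in 6 h controls, a log2 fold change of 1.61 ± 0.06 (SE, edgeR adjusted p = 7.1e-11), and 2.88-fold lower in normoxia-hyperoxia than in 24 h controls, at -1.53 ± 0.06 (SE, edgeR adjusted p = 3.1e-11). Its difference between normoxia-hyperoxia and normoxia was 0.11 ± 0.06 (SE, edgeR adjusted p = 0.12), and 0.19 (edgeR adjusted p = 0.0137) with total counts. Ikbkg overlaps G6pdx on the opposite strand and held 48919 reads over all libraries. Since the strand setting of the counting is not given, reads of the 2 genes cannot be told apart where they overlap. Ikbkg is named for this overlap, after its values were seen: over the 16 groups, its profile was the fourth nearest to that of Gclm, another gene that was high in the 24 h control and drug groups, with a mean absolute log2 difference of 0.21.

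With either drug, no change was called in any of the 10 genes at either time. At 6 h no gene at all was called with tunicamycin or cyclosporin A on the mean of both strains (0% of 16551 and 16538 genes by edgeR, 281 and 734 genes at an unadjusted p under 0.05; DESeq2 called 0 with tunicamycin, and 7 higher and 38 lower with cyclosporin A). At 24 h, tunicamycin changed 1.38% of 16905 genes by edgeR (0.97% higher and 0.408% lower), and DESeq2 called more, as given in the closing section. Cyclosporin A at 24 h changed 0% of 16887 genes by edgeR, with 1107 at an unadjusted p under 0.05. DESeq2 called 1 higher and 18 lower with cyclosporin A. The members' log2 fold changes ranged from -0.18 to 0.07 with tunicamycin at 24 h (smallest edgeR adjusted p = 0.28) and from -0.20 to 0.08 with cyclosporin A at 24 h. At 6 h they ranged from -0.09 to 0.15 with tunicamycin and from -0.09 to 0.17 with cyclosporin A. Hmox1, for example, held 4450.4, 4648 and 4267 CPM in C57BL/6J slices with tunicamycin for 24 h and 4079, 4727 and 4035 CPM with cyclosporin A, against 4285, 4381 and 4309 CPM in controls. In DBA/2J it held 3519, 4701 and 3615 CPM with tunicamycin and 4006, 3733 and 3715 CPM with cyclosporin A, against 3327, 4313 and 3682 CPM in controls. All these ranges overlapped the controls of their strain. Nqo1 held 162, 176 and 163 CPM and 88.4, 113 and 88.7 CPM with tunicamycin for 24 h in C57BL/6J and DBA/2J, and 155, 164 and 175 and 119, 140.02 and 103 CPM with cyclosporin A. No drug group stood apart from its controls in these genes beyond the test's threshold. The tunicamycin slices did show a change in another stress pathway: of 10 genes of the ATF4 arm of the unfolded protein response, 6 were higher and none lower at 24 h. Ddit3, which encodes the stress factor CHOP, was higher by 0.82 ± 0.09 (SE, edgeR adjusted p = 0.00167) on the log2 scale. Chac1, a glutathione-degrading enzyme, was higher by 0.62 ± 0.07 (SE, edgeR adjusted p = 0.00267), and Trib3, a pseudokinase induced by ATF4, by 0.41 ± 0.09 (SE, edgeR adjusted p = 0.0377). Slc7a11, which shares its promoter's ATF4 cores with no other member searched, was at 0.07 ± 0.12 (SE, edgeR adjusted p = 0.87) in that comparison.

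The strains differed in several of these genes in the same direction. Strain differences are given as DBA/2J over C57BL/6J on the log2 scale, from 4 conditions. Reads of both strains were aligned to one reference, GRCm38. Whether reads of DBA/2J alleles were lost in that step was not tested. The strains also differed in mitochondrial share, at 14.8% to 16.3% in C57BL/6J and 8.05% to 8.32% in DBA/2J in 6 h controls, 5.96% to 7.87% and 3.39% to 3.602% in 24 h controls, and 22.8% to 25.6% and 11.8% to 12.8% in normoxia; in normoxia-hyperoxia the shares overlapped. Without mitochondrial genes each strain difference called below was still called, in the same direction. The proximal tubule sums given above were higher in DBA/2J in all 4 conditions. Other cell types went both ways. The summed level of 6 endothelial markers was 837 to 1167 CPM in C57BL/6J and 420.5 to 706 CPM in DBA/2J in normoxia, 1414 to 1783 and 935 to 1311 in 6 h controls, and 1063 to 1392 and 633 to 1026 in 24 h controls, whereas in normoxia-hyperoxia the ranges overlapped. In normoxia all 8 other marker lists were lower in DBA/2J without overlap, among them the sums for loop of Henle (7932 to 13806.5 CPM in C57BL/6J and 1947 to 3859 in DBA/2J), podocytes (777 to 1012 and 435 to 573) and intercalated cells (392 to 470.01 and 177 to 263). Macrophage sums were higher in DBA/2J in 6 h controls (155 to 193 CPM in C57BL/6J and 214 to 260.3 in DBA/2J) and in 24 h controls and normoxia-hyperoxia (given above), and the distal convoluted tubule sum was higher in 24 h controls (given above). The loop of Henle, podocyte and intercalated sums were also lower in DBA/2J in 6 h controls without overlap, the podocyte sum in 24 h controls and the collecting duct sum in normoxia-hyperoxia. The part of these in the strain differences was not tested. Of the 10 genes, 5 were called in 6 h controls (background 26.2% of genes), 4 in 24 h controls (22.2%), 5 in normoxia (46.8%) and 5 in normoxia-hyperoxia (25.7%). Nfe2l2 was lower in DBA/2J in each of the 4 conditions, at -0.80 ± 0.12 (SE, edgeR adjusted p = 2.9e-04) in 6 h controls, -0.73 ± 0.12 (SE, edgeR adjusted p = 5.9e-04) in 24 h controls, -0.45 ± 0.08 (SE, edgeR adjusted p = 4.3e-04) in normoxia and -0.67 ± 0.08 (SE, edgeR adjusted p = 2.8e-05) in normoxia-hyperoxia. Its libraries did not overlap between the strains in any of the 8 conditions. Gclc was lower in DBA/2J in 6 h controls, at -1.04 ± 0.22 (SE, edgeR adjusted p = 0.00417), in 24 h controls, at -1.07 ± 0.22 (SE, edgeR adjusted p = 0.00383), and in normoxia-hyperoxia, at -0.66 ± 0.18 (SE, edgeR adjusted p = 0.0158); in normoxia it was at -0.46 ± 0.18 (SE, edgeR adjusted p = 0.0515). Gclm was lower in DBA/2J in 24 h controls, at -0.85 ± 0.10 (SE, edgeR adjusted p = 4.5e-05), and in normoxia, at -0.44 ± 0.07 (SE, edgeR adjusted p = 1.6e-04). For Nqo1 the DBA/2J level was lower in 24 h controls, at -0.73 ± 0.09 (SE, edgeR adjusted p = 7.5e-05), in normoxia, at -0.85 ± 0.12 (SE, edgeR adjusted p = 3.8e-05), and in 6 h controls, at -0.33 ± 0.10 (SE, edgeR adjusted p = 0.0265), the last lost in 5 of 18 alternatives, among them those without C57BL/6J control 6 h replicate 1 and without DBA/2J control 6 h replicate 1 or 3. In normoxia-hyperoxia no difference was called for Gclm (-0.20) or Nqo1 (-0.24).

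**Figure D3:**
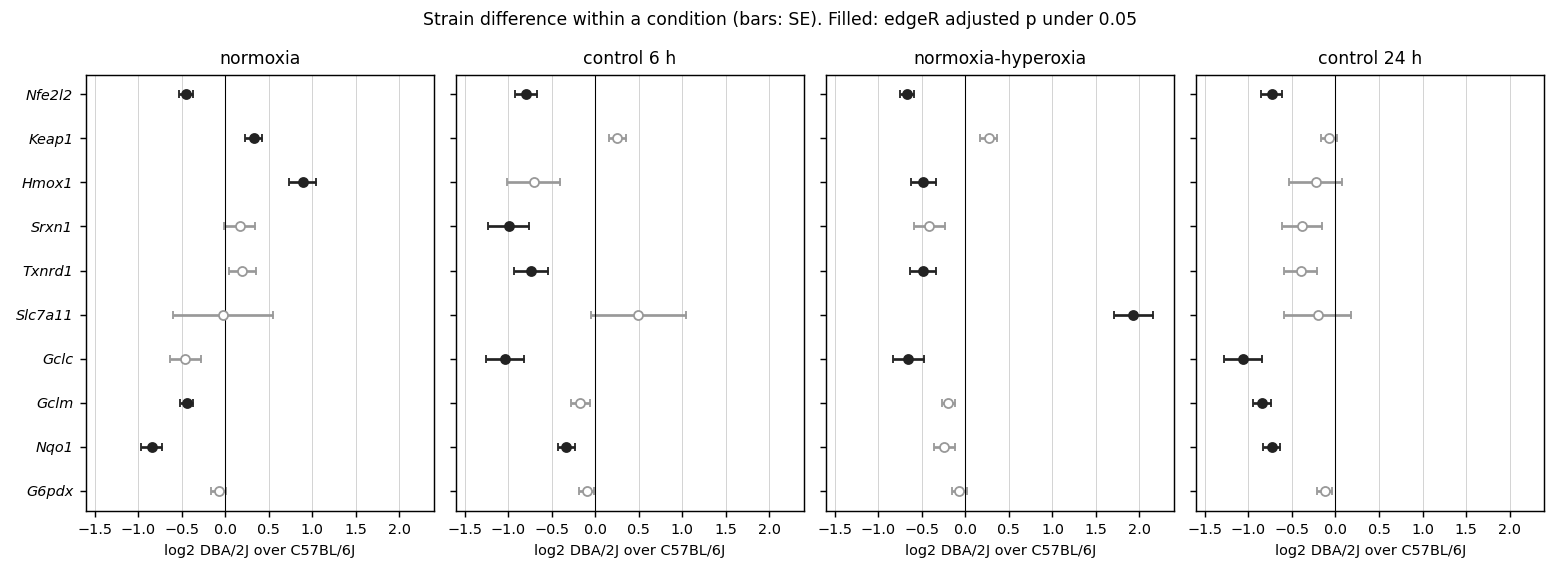
Log2 difference between DBA/2J and C57BL/6J (bars SE) of each gene within 4 conditions; filled points have an edgeR adjusted p under 0.05. Nfe2l2 is lower in DBA/2J in all 4 panels, and Slc7a11 in normoxia-hyperoxia and Hmox1 in normoxia are higher.

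Other strain differences went the other way or were called in 1 or 2 conditions. A difference that was not called is not shown to be absent. In 24 h controls, Srxn1 and Txnrd1 were not called, although every DBA/2J library lay below every C57BL/6J library in CPM. The change between conditions also differed between the strains, by the interaction term, for 5 of the 10 genes in normoxia against 24 h controls (background 17% of genes), 2 in normoxia-hyperoxia against 24 h controls (1.43%) and 4 in normoxia-hyperoxia against normoxia (18.2%). With single libraries left out, these counts were 3 to 6, 2 and 1 to 5. Hmox1 was higher in DBA/2J in normoxia, at 0.89 ± 0.16 (SE, edgeR adjusted p = 3.2e-04), and lower in normoxia-hyperoxia, at -0.48 ± 0.15 (SE, edgeR adjusted p = 0.0242), the latter lost in 5 of 18 alternatives. Slc7a11 was higher in DBA/2J in normoxia-hyperoxia, at 1.93 ± 0.23 (SE, edgeR adjusted p = 2.1e-05). The proximal tubule, macrophage and collecting duct sums given above also differed between the strains in that condition, and their part was not tested. The macrophage sums were higher in DBA/2J in 6 h and 24 h controls as well, where no Slc7a11 difference was called. Keap1 was higher in DBA/2J in normoxia, at 0.33 ± 0.10 (SE, edgeR adjusted p = 0.0113). It was not called in 6 h controls or normoxia-hyperoxia, although its libraries did not overlap there. It held 29.9 to 37.4 CPM (C57BL/6J) and 42.1 to 45.3 CPM (DBA/2J) in 6 h controls. In normoxia-hyperoxia it held 32.9 to 41.3 and 48.1 to 49.1 CPM. Srxn1 and Txnrd1 were lower in DBA/2J in 6 h controls, at -0.996 ± 0.23 (SE, edgeR adjusted p = 0.00787) and -0.74 ± 0.19 (SE, edgeR adjusted p = 0.0127), and Txnrd1 also in normoxia-hyperoxia, at -0.49 ± 0.15 (SE, edgeR adjusted p = 0.0284), which was lost in 6 of 18 alternatives. The 6 h differences leaned on C57BL/6J control 6 h replicate 2: without it Srxn1 was at -0.55, Txnrd1 at -0.38 and Gclc at -0.66, all still called. Without DBA/2J control 6 h replicate 1 the Txnrd1 difference was -0.63 (edgeR adjusted p = 0.0526). In normoxia-hyperoxia the count of 5 called genes was 2 without DBA/2J replicate 1, and 3 without C57BL/6J replicate 1, C57BL/6J replicate 3 or DBA/2J replicate 2. The Txnrd1 call was lost without each of these 4 libraries, the Hmox1 call without C57BL/6J replicate 3 or DBA/2J replicate 1 or 2, and the Gclc call without replicate 1 of either strain. Without DBA/2J replicate 1, Hmox1 was at -0.31 (edgeR adjusted p = 0.088), Txnrd1 at -0.34 (edgeR adjusted p = 0.12) and Gclc at -0.48 (edgeR adjusted p = 0.0518). The 5 calls at 6 h were 3 without DBA/2J control 6 h replicate 1. The Keap1 difference in normoxia was 0.24 (edgeR adjusted p = 0.0648) without C57BL/6J normoxia replicate 2.

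Within groups, the libraries of C57BL/6J at 6 h differed from each other most in 5 genes of the first pattern, all except Nfe2l2. Over the 9 C57BL/6J libraries at 6 h (control, tunicamycin and cyclosporin A), Slc7a11 ranged over 1.01 to 7.78 CPM, Hmox1 over 888 to 2099, Srxn1 over 672 to 1435, Gclc over 458 to 863 and Txnrd1 over 393 to 716. The highest over the lowest library was 7.72 for Slc7a11, 2.36 for Hmox1 and 2.14 for Srxn1, against 1.31 for G6pdx, 1.48 for Gclm, 1.49 for Nfe2l2, 1.497 for Keap1 and 1.52 for Nqo1. In the 9 C57BL/6J libraries at 24 h the same ratio was 1.59 for Slc7a11, 1.17 for Hmox1 and 1.22 for Srxn1. The same library led in all 5 of these genes within each group, though not in Nfe2l2 in the drug groups: replicate 2 of the controls, replicate 1 of the tunicamycin group and replicate 1 of the cyclosporin A group. Of the 3 C57BL/6J control libraries at 6 h, replicate 2 also had the lowest proximal tubule marker sum, 8102 CPM against 15176 and 12158 in replicates 1 and 3, the highest macrophage sum, 193 against 155 and 177, the highest endothelial sum, 1783 against 1414 and 1579, and a mitochondrial share of 16.3% against 14.8% and 15.1%; the part of these in the spread was not tested. Without that library, Hmox1 in normoxia-hyperoxia against 6 h controls was 0.40 (edgeR adjusted p = 0.0343) in place of 0.12, and Gclc 0.43 (edgeR adjusted p = 0.00931) in place of 0.25.

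Other genes of the pathway were followed in a list of 53, of which 51 were tested in each of these comparisons; the list is the textbook NRF2 network and not a set chosen on binding in this tissue. In normoxia-hyperoxia against normoxia, 20 were higher and 27 lower, with a median log2 fold change of -0.28 (all genes 0.02). In 6 h controls against normoxia, 18 were higher and 21 lower. In 24 h against 6 h controls, 26 were higher and 15 lower, with a median of 0.27 (all genes -0.02). Normoxia against 24 h controls gave 17 higher and 30 lower, normoxia-hyperoxia against 24 h controls 11 and 35, and normoxia-hyperoxia against 6 h controls 10 and 23. Over all genes the shares called in these comparisons were those given above for the 10 genes. With tunicamycin at 24 h, 2 of 51 were called, Slc3a2 at 0.29 and Glrx at -0.41, and this count was 0 without C57BL/6J control 24 h replicate 2 or 3 or C57BL/6J tunicamycin 24 h replicate 1, and 1 without DBA/2J control 24 h replicate 3 or C57BL/6J tunicamycin 24 h replicate 2.

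Of 8 regulators of the pathway, 6 were higher in 6 h controls than in normoxia, where 32.9% of all genes were called higher, and 7 in normoxia-hyperoxia, where 37% were, with Rbx1 lower in both. Maff, a small MAF protein that partners NRF2, was at a mean of 2.69 CPM in C57BL/6J normoxia and 298 CPM in C57BL/6J normoxia-hyperoxia, and at 2.71 and 260.3 CPM in DBA/2J. This was a rise of 6.598 ± 0.12 (SE, edgeR adjusted p = 2.9e-15) on the log2 scale. Mafk, of the same family, was higher by 3.35 ± 0.08 (SE, edgeR adjusted p = 4.2e-14) and the repressor Bach1 by 2.31 ± 0.08 (SE, edgeR adjusted p = 1.5e-12). In 6 h controls against normoxia Maff was higher by 5.99 ± 0.11 (SE, edgeR adjusted p = 7.1e-15) and Sqstm1, a cargo receptor that binds KEAP1, by 2.202 ± 0.13 (SE, edgeR adjusted p = 1.5e-09). Mafk was higher there by 3.15 ± 0.09 (SE, edgeR adjusted p = 8.4e-13). Of the rest of the wider list, Me1 (-1.04), Abcc2 (-1.02) and Ugt1a6a (-0.93) were called lower there. Against 6 h controls, normoxia-hyperoxia had higher Maff, by 0.65 ± 0.11 (SE, edgeR adjusted p = 2.5e-04), and Bach1, by 0.48 ± 0.12 (SE, edgeR adjusted p = 0.00572). In that comparison 22.4% of all genes were called higher and 22.5% lower. Of the rest of the wider list, Abcc3 was higher there, by 0.47. The decreases of Abcc2 (-3.19), Ugt1a6a (-2.61) and Me1 (-1.75) were larger than these rises.

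From 6 h to 24 h controls, 9 of 16 tested glutathione genes were higher and 5 lower, in a comparison where 34.7% of all genes were called higher and 37.4% lower. Abcc3, an efflux pump for conjugates, was higher by 2.67 ± 0.15 (SE, edgeR adjusted p = 1.2e-09), Gsta4, a transferase for lipid aldehydes, by 2.48 ± 0.10 (SE, edgeR adjusted p = 5.2e-11), and the efflux pump Abcc4 by 2.395 ± 0.08 (SE, edgeR adjusted p = 2.5e-11). Of 5 NADPH genes, 3 were higher (Pgd, Taldo1 and Tkt, all enzymes of the pentose phosphate pathway, as G6pdx is) and 2 lower (Idh1 and Me1). Of 6 iron and heme genes, 5 were higher and none lower. Of 9 detoxification genes, 2 were higher and 6 lower. The largest decreases of the list were those of Idh1, the cytosolic isocitrate dehydrogenase, at -2.42 ± 0.17 (SE, edgeR adjusted p = 6.8e-08), of Gpx1, a glutathione peroxidase, at -1.57 ± 0.15 (SE, edgeR adjusted p = 6.5e-07), and of Ugt1a6a, a glucuronosyltransferase, at -1.54 ± 0.20 (SE, edgeR adjusted p = 2.6e-05). They stand beside the fall of the proximal tubule markers, of which 10 of 10 were lower at 24 h; their part was not tested.

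**Figure D4:**
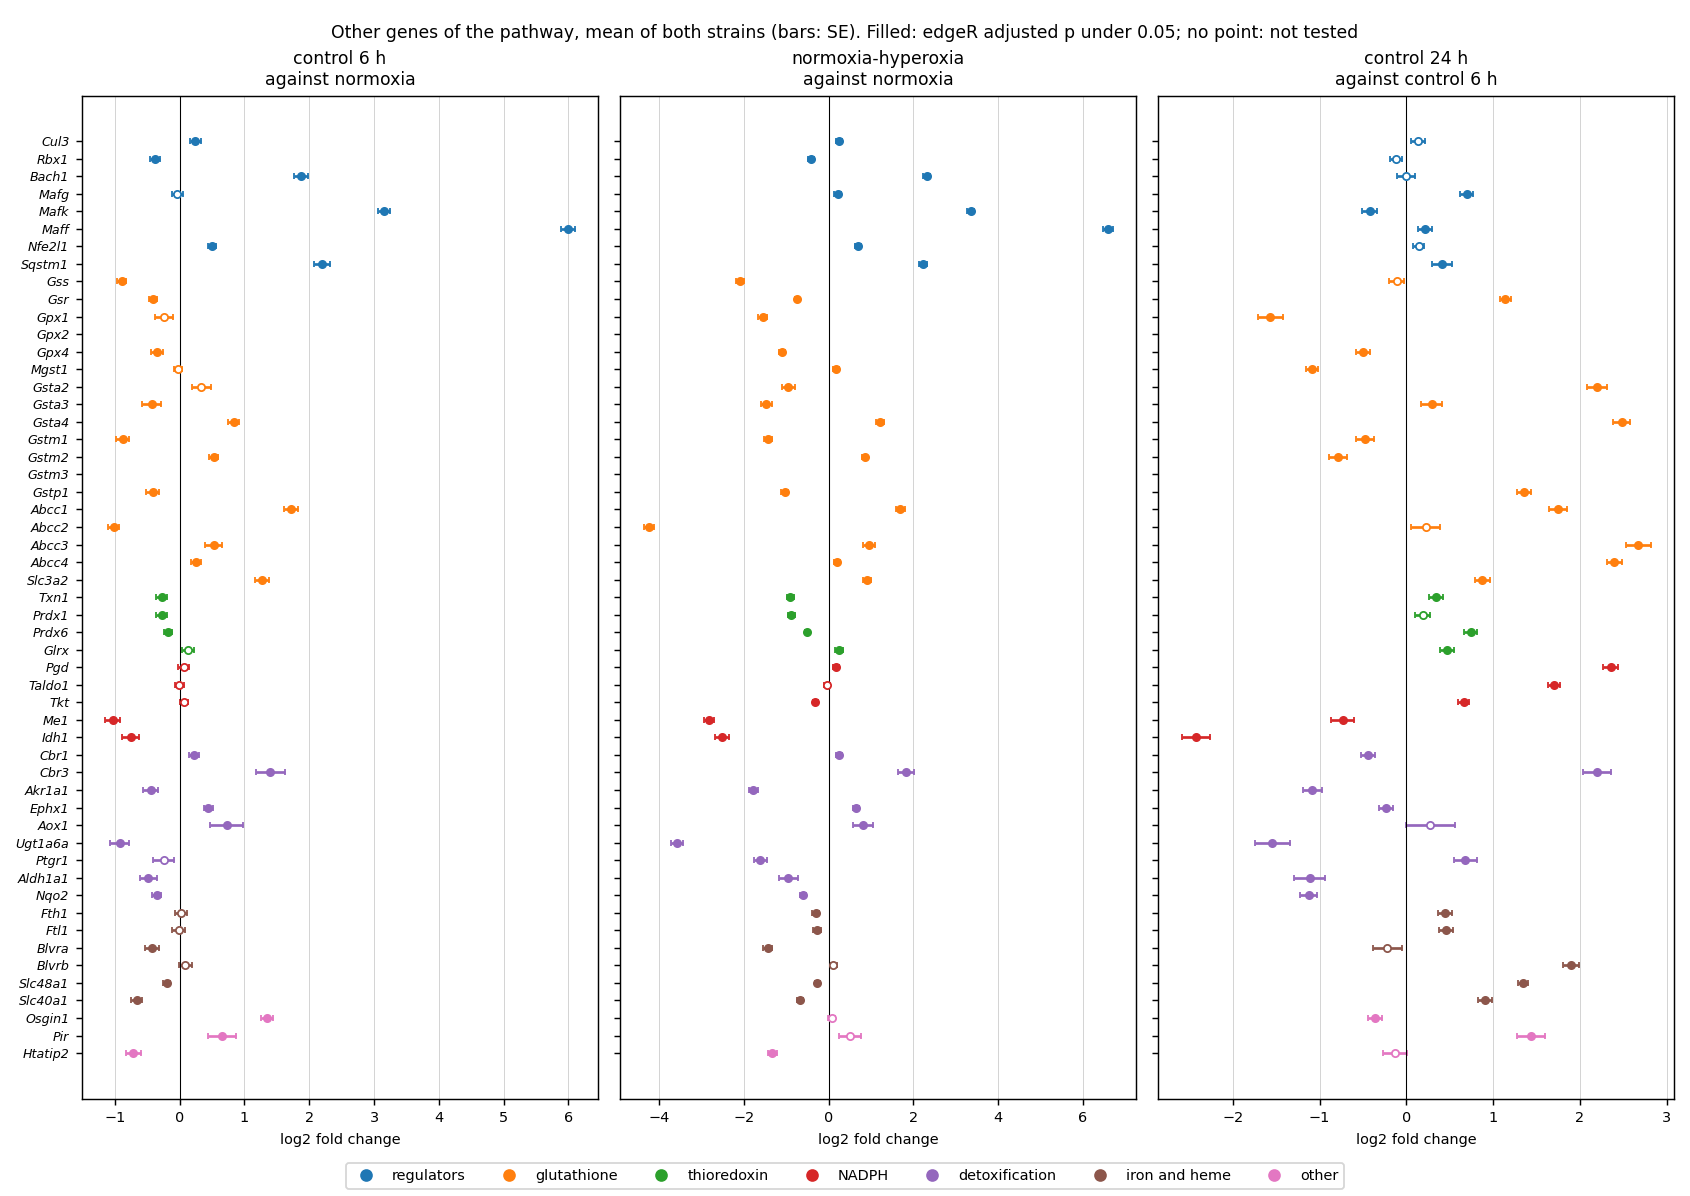
Log2 fold change (mean of both strains, bars SE) of the other pathway genes in 3 comparisons, coloured by role; filled points have an edgeR adjusted p under 0.05. Maff, Mafk, Bach1 and Sqstm1 lie to the right against normoxia, and Abcc3, Gsta4, Abcc4 and Pgd in 24 h against 6 h controls.

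From normoxia to normoxia-hyperoxia the enzymes of the list went both ways, as did all genes, of which 37% were called higher and 36.5% lower. Of 16 glutathione genes 7 were higher and 9 lower, of 4 thioredoxin genes 1 higher and 3 lower (Txn1, Prdx1 and Prdx6, whereas Txnrd1 and Srxn1 rose), of 5 NADPH genes 1 higher and 3 lower, and of 6 iron and heme genes none higher and 5 lower. The largest decreases were in Abcc2, an apical efflux pump, at -4.26 ± 0.12 (SE, edgeR adjusted p = 7.9e-13), Ugt1a6a, at -3.58 ± 0.15 (SE, edgeR adjusted p = 1.2e-10), and the malic enzyme Me1, at -2.83 ± 0.12 (SE, edgeR adjusted p = 7.5e-11). All 10 proximal tubule markers were lower in that comparison as well, and the marker sums of 5 other cell types were higher without overlap in both strains. In DBA/2J the sums went from 156 to 186 CPM in normoxia to 493 to 599.9 CPM in normoxia-hyperoxia for macrophages, from 1364 to 1890.1 to 5731 to 6842 for the distal convoluted tubule, from 420.5 to 706 to 1304 to 1893 for endothelium, from 435 to 573 to 1064 to 1913 for podocytes and from 235 to 292 to 463 to 685 for the collecting duct. In C57BL/6J the smallest of these 5 shifts was that of the macrophages, from 219 to 235 CPM to 241 to 298. The loop of Henle (1947 to 3859 CPM in normoxia and 5590.5 to 7709 in normoxia-hyperoxia), intercalated (177 to 263 and 355 to 545) and fibroblast (32.1 to 56.9 and 65.2 to 95.95) sums were higher without overlap in DBA/2J and overlapped in C57BL/6J. The part of these shifts was not tested. Against 24 h controls, normoxia-hyperoxia had lower Gsta2, at -3.46 ± 0.12 (SE, edgeR adjusted p = 2.7e-11), Abcc2, at -3.43 ± 0.21 (SE, edgeR adjusted p = 5.3e-08), and Abcc4, at -2.42 ± 0.08 (SE, edgeR adjusted p = 1.2e-11), and higher Mgst1, a microsomal transferase, at 1.32 ± 0.07 (SE, edgeR adjusted p = 3.8e-10), Gstm2, at 1.15 ± 0.09 (SE, edgeR adjusted p = 3.6e-08), and Nqo2, a relative of Nqo1, at 0.90 ± 0.10 (SE, edgeR adjusted p = 8.9e-07). In normoxia against 24 h controls the largest differences were those of Maff, at -6.16 ± 0.07 (SE, edgeR adjusted p = 3.9e-18), Cbr3, a carbonyl reductase, at -3.55 ± 0.13 (SE, edgeR adjusted p = 4.9e-13), and Abcc1, at -3.42 ± 0.12 (SE, edgeR adjusted p = 1.4e-11), while Idh1 (3.23), Ugt1a6a (2.52) and Gpx1 (1.86) were higher in normoxia, with edgeR adjusted p of 8.9e-09, 3.0e-07 and 4.8e-08.

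The ATF4 list, which shares Slc3a2 with the wider NRF2 list, was lower in normoxia than in control slices. On the mean of both strains, all 10 of its genes were called lower in normoxia than in 24 h controls, where 39.7% of all genes were, and all 10 higher in 6 h controls than in normoxia, where 32.9% were. In normoxia-hyperoxia 9 were higher than in normoxia (background 37%) and Psat1 lower. Against 24 h controls, normoxia-hyperoxia had 7 lower (background 34.1%) and 1 higher (Atf3). Psat1 differed by strain: its mean was 16.9 CPM in normoxia, 28.4 in 6 h controls and 20.9 in normoxia-hyperoxia in C57BL/6J, and 43.2, 40.7 and 24.2 CPM in DBA/2J. Atf3, a stress-responsive factor, was at a mean of 2.42 CPM in C57BL/6J normoxia and 1471 CPM in C57BL/6J normoxia-hyperoxia. From 6 h to 24 h controls Asns and Psat1, enzymes of asparagine and serine synthesis, were higher by 2.58 ± 0.18 (SE, edgeR adjusted p = 1.1e-07) and 2.02 ± 0.08 (SE, edgeR adjusted p = 8.1e-11), whereas Atf3 was lower, at -1.76 ± 0.12 (SE, edgeR adjusted p = 1.7e-08).

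The genes with the profile most like each member were taken as those with the smallest mean absolute difference between log2 levels centred over the 16 groups, with TMM scaling over all libraries and a prior count of 2, among 12207 genes with a mean log2 CPM of 1 or more. The measure is a description across groups that share libraries. Nearest to Nqo1 were Abcc4 (0.18) and Pgd (0.20), both on the NRF2 list. Nearest to Gclm were Gstp1 (0.19), also on the list, and Kit (0.19). For Hmox1 they were Cdkn1a (0.34) and Vgf (0.34), for Txnrd1 Mlkl (0.18) and Ampd3 (0.22), for Srxn1 Stx11 (0.18) and Cry1 (0.20), and for Slc7a11 Il1f6 (0.42) and Il1rn (0.44). For Nfe2l2 they were Cd93 (0.13) and Dstn (0.14), for Gclc Zfp948 (0.09) and Mdfi (0.15), for Keap1 Dcakd (0.06) and Slc35a4 (0.07), and for G6pdx Ccdc137 (0.08) and Fam208b (0.09). Among the members themselves the closest pairs were Gclm with G6pdx (0.28), Nqo1 with Gclm (0.30) and Nfe2l2 with Gclc (0.34).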

How the data were processed

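Gene counts per library were deposited by the authors as one table of raw whole-number counts. Per the submitters' processing notes, the tools were bcl2fastq 2.20.0, FastQC 0.11.8, STAR 2.7.9a and featureCounts 1.5.1 on GRCm38; the annotation release and strand setting are not given in the sources used here. Symbols were matched to 55141 of 55487 identifiers, and positions are from GENCODE M21 (GRCm38).

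From the counts, edgeR 4.0.16 (R 4.3.3) was run on the 12 libraries of each comparison with filterByExpr, TMM factors, one mean per group and the robust quasi-likelihood test. Contrasts were the mean of both strains, each strain, their difference, and DBA/2J against C57BL/6J within a condition. Benjamini-Hochberg adjustment covered all genes tested, with calls at an adjusted p under 0.05. The scripts were tested on simulated data. CPM is the count over the library total. The precision is limited by 3 libraries per group and by 5619309 to 25137581 reads per library.

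Alternatives were RLE factors, total counts, removal of mitochondrial genes, no filter, DESeq2 1.42.0, one fit of all 48 libraries, a replicate block and leaving out each library. The genes, lists and tests were chosen with earlier results of these data known, and 2 of the 10 comparisons (6 h controls against normoxia, and normoxia-hyperoxia against 6 h controls) were added after the data had been seen, as was leaving out single libraries in the Slc7a11 ratios. All 10 genes are named; of the wider list, the 3 with the largest increase and decrease among those called in a comparison with a mean log2 CPM of 1 or more; of the ATF4 list up to 3 by the same rule; for likeness, the 2 nearest named genes.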

Additional observations from a re-analysis of the deposited data

Results flagged for a closer look

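The log2 fold changes of some genes differed between the strains by the interaction term of the edgeR fit, given as the DBA/2J change minus the C57BL/6J change. In normoxia-hyperoxia against 24 h controls this held for 2 of the 10 genes (background 1.43% of genes). Slc7a11, the cystine exchanger, changed by -4.54 in C57BL/6J and -2.39 in DBA/2J, a difference of 2.15 ± 0.30 (SE, edgeR adjusted p = 0.00521), and Gclm by -2.37 in C57BL/6J and -1.699 in DBA/2J, a difference of 0.67 ± 0.10 (SE, edgeR adjusted p = 0.00581). Both were kept in all 19 alternatives.

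In normoxia against 24 h controls 5 genes differed (background 17% of genes). Hmox1 changed by -7.495 in C57BL/6J and -6.37 in DBA/2J, a difference of 1.13 ± 0.15 (SE, edgeR adjusted p = 2.2e-04) that was kept in all 19 alternatives. The differences were 0.56 ± 0.12 (SE, edgeR adjusted p = 0.00535) for Srxn1 and 0.60 ± 0.13 (SE, edgeR adjusted p = 0.00539) for Txnrd1, each lost in 1 alternative, the fit of all 48 libraries. They were 0.41 ± 0.11 (SE, edgeR adjusted p = 0.0196) for Gclm, lost in 7 of 19 alternatives, and 0.41 ± 0.13 (SE, edgeR adjusted p = 0.0387) for Keap1, lost in 13 of 19.

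In normoxia-hyperoxia against normoxia 4 genes differed (background 18.2% of genes). Hmox1 rose by 6.04 in C57BL/6J and 4.67 in DBA/2J, a difference of -1.37 ± 0.21 (SE, edgeR adjusted p = 7.5e-04) that was kept in all 19 alternatives. Nqo1 changed by -0.93 in C57BL/6J and -0.33 in DBA/2J, a difference of 0.60 ± 0.17 (SE, edgeR adjusted p = 0.0222), lost in 2 of 19. The differences of Slc7a11, 1.96 ± 0.65 (SE, edgeR adjusted p = 0.0481), and Txnrd1, -0.68 ± 0.22 (SE, edgeR adjusted p = 0.0401), were lost in 11 and 12 of 19 alternatives; for Slc7a11 the normoxia side rests on 1 to 6 reads per library. Hmox1 in normoxia appears in both contrasts, whose normoxia libraries are shared.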

How the results depend on the processing

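No called fold change of the 10 genes changed sign in any alternative. Calls on the mean of both strains, both directions together, stayed within 1.5 times their count in every comparison. The higher calls of Srxn1 and Nfe2l2 in normoxia-hyperoxia against 24 h controls were lost with total counts. Estimates that were not called turned sign for Nfe2l2 in 24 h against 6 h controls (0.0623 with total counts), G6pdx in 6 h controls against normoxia (-0.0201 without C57BL/6J control 6 h replicate 2, up to 0.074 without C57BL/6J normoxia replicate 2) and Nfe2l2 in normoxia-hyperoxia against 6 h controls (-0.011 without C57BL/6J control 6 h replicate 1, up to 0.144 without C57BL/6J control 6 h replicate 2). The counts of genes whose change differed between the strains moved most. In normoxia against 24 h controls the 5 became 3 with total counts, 3 without mitochondrial genes and 1 with all 48 libraries, and 3 to 6 with single libraries left out, lowest without C57BL/6J control 24 h replicate 3 or any DBA/2J control 24 h replicate. In normoxia-hyperoxia against normoxia the 4 became 2 with all 48 libraries and 1 to 5 with single libraries left out, lowest without DBA/2J normoxia replicate 3. In 24 h against 6 h controls the 0 became 1 with total counts, 3 with no filter, 1 with DESeq2, 1 with all 48 libraries, and 0 to 1 with single libraries left out. In 6 h controls against normoxia the 0 became 1 with RLE factors, 1 with total counts, 1 without mitochondrial genes, 4 with no filter, 3 with DESeq2, 2 with all 48 libraries, and 0 to 3 with single libraries left out, highest without C57BL/6J control 6 h replicate 1 or 2. In normoxia-hyperoxia against 6 h controls it was 0, and 2 with no filter; the C57BL/6J count of 1 became 2 with no filter, 2 with all 48 libraries and 1 to 3 with single libraries left out, and the DBA/2J count of 3 became 2 to 5, both highest without C57BL/6J control 6 h replicate 2. With single libraries left out, strain differences numbered 2 to 6 in normoxia-hyperoxia and 3 to 6 in 6 h controls in place of 5, and the wider list with tunicamycin at 24 h 0 to 2 in place of 2. Over all genes, tunicamycin at 24 h called 233 genes, but 291 higher and 245 lower with DESeq2 and 269 higher and 126 lower with no filter. The cause of these moves was not tested. Depth limits Slc7a11 in normoxia most.

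Same-numbered libraries correlated at -0.139 to 0.366 in their deviations from group means. In no comparison did all 6 pairs exceed 0.1, the level set for treating the numbers as pairs, although all 3 pairs of 1 strain did in 6 comparisons and 5 of 6 pairs did in 2. With the replicate block, 1 gene in place of 0 differed between the strains in 6 h controls against normoxia, and the other 49 counts stayed within 1.5 times.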
